A study of Mus musculus with 13 samples.

Results

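The 544 DNA sites described here were bound by the transcription factor TCF1 in regulatory T cells without the activating mutation. Each touched a called peak of open chromatin in those cells and none in cells with the mutation. They were chosen from 5876 deposited TCF1 ChIP-seq peaks as those that shared at least 1 bp with an ATAC-seq peak in at least 1 of 3 WT libraries and with no peak in either of 2 CAT libraries. That is 9.26% of the TCF1 peaks, with a 95% Clopper-Pearson interval of 8.53% to 10.0% that covers counting error only. The same ATAC peaks that chose these sites also give their openness, so every value of openness below is a description and was not tested. At 269 of the sites (49.4%) the open region around the bound interval still held a CAT peak.

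CAT cells carry Foxp3Cre-YFP together with the Ctnnb1flex3 allele, whose exon 3 Cre removes, leaving a beta-catenin that is known to escape degradation. WT cells carry Foxp3Cre-YFP alone, so Cre and the yellow fluorescent protein are present in both genotypes, and both are driven by Foxp3, the gene that defines the cells studied. All mice were male C57BL/6, at 21 days of age for RNA-seq and ATAC-seq and at 10 to 12 weeks for ChIP-seq, and the sort kept CD4 T cells with YFP and CD25, from lymph nodes for ATAC-seq and from lymph nodes and spleen for ChIP-seq. RNA-seq had 3 CAT and 3 WT libraries, ATAC-seq 2 CAT and 3 WT libraries, and the ChIP, with an antibody to TCF1, 1 WT library, so TCF1 binding in CAT cells was not measured and the bound sites come from older mice than the open ones. Nothing in the labels ties a library to an animal, so a p-value here reflects the spread among libraries only, part of which may be technical.

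TCF1, the product of Tcf7, and its relative LEF1 bind DNA through an HMG box that prefers a short core, CTTTGA or CTTTGT. Bound TCF1 recruits beta-catenin when Wnt signalling stabilises it, and corepressors of the TLE family when it does not. In T cells TCF1 is known for its part in early thymic development and for keeping naive and memory-like states. ATAC-seq maps open chromatin by where a transposase can insert, and a site called closed here is one without a called peak.

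Only 6 of the 544 sites lay whole inside a 300 base promoter window of RefSeq (GRCm38.p6, the assembly behind mm10), and their sequences are shown because they are the bound sites whose letters could be read. They are written 5′ to 3′ along the gene's strand, with capitals for cores found on either strand. The search covered the TCF cores CTTTGA and CTTTGT, the ETS cores AGGAAG and CCGGAA, the RUNX core TGTGGT, the AP-1 core TGANTCA, the E protein cores CAGCTG and CAGGTG, the forkhead core GTAAACA, the core AGATAA of GATA factors, and the NF-kB motif. The Pim1 site is chr17:29492840-29492981, the Rasgrp2 site chr19:6401501-6401642, the Dnajb14 site chr3:137867508-137867649, the Gm15323 site chr13:112000794-112000935, the Ppt2 site chr17:34627543-34627684 on the minus strand, and the Bend3 site chr10:43478923-43479064. The last line is a TCF1 peak at the start of Tigit, chr16:43664232-43664373 on the minus strand, that was open in every library. It is shown beside them as a promoter site with a TCF core at a gene described below.
Pim1: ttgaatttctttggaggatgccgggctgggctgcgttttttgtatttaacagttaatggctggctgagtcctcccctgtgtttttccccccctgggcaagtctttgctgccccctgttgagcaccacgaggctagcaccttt
Rasgrp2: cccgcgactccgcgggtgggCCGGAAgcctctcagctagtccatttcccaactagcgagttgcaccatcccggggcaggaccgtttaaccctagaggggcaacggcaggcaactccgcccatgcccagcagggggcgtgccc
Dnajb14: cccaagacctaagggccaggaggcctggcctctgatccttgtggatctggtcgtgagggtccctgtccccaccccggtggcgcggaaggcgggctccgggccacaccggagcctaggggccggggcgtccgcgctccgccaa
Gm15323: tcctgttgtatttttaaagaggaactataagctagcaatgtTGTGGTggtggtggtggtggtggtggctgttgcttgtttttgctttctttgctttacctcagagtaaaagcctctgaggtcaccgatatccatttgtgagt
Ppt2: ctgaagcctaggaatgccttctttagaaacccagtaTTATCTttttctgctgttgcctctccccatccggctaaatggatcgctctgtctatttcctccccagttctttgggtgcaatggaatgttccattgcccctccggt
Bend3: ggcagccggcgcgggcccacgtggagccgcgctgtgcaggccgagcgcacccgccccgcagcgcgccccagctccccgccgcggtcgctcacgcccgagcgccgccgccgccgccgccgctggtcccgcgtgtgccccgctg
Tigit: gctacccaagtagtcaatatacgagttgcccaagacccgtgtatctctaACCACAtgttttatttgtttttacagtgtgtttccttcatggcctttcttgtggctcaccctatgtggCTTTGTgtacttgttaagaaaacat

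None of the 6 sites held CTTTGA or CTTTGT on either strand, against 120 of 1255 promoter sites open in every library (9.56%) and 16.8% of 32817 promoter windows cut to the same 142 bases. The capitals mark an ETS core (CCGGAA) at Rasgrp2, a RUNX core (TGTGGT) at Gm15323, a GATA core (AGATAA, on the opposite strand) at Ppt2, and at Tigit a RUNX core on the opposite strand and the TCF core CTTTGT. An ETS core, AGGAAG or CCGGAA, was in 1 of the 6 sites, in 42.5% of the promoter sites open in every library and in 24.0% of the promoter windows. The RUNX core was in 5.50% of the promoter sites open in every library and 8.23% of the windows, and AGATAA in 1.99% and 5.53%. With 6 sites these shares describe only those sites, and the letters of the other 538 sites were not read here. Rasgrp2, which encodes an activator of the integrin switch Rap1, had 41.8, 40.8 and 37.3 CPM (the gene's fragments scaled to library size) in CAT and 68.5, 64.4 and 76.3 CPM in WT. It fell by 0.80 ± 0.092 on the log2 scale (± is an approximate standard error, edgeR adjusted p = 1.17e-04). Pim1, a kinase gene of cytokine signalling, had 363, 312 and 268 CPM in CAT and 100.4, 119 and 135 CPM in WT, a log2 change of 1.41 ± 0.14 (edgeR adjusted p = 4.23e-05). Both genes were thus separated between the genotypes in every library, in opposite directions, and the share of all tested genes so separated was not counted. Dnajb14, Ppt2 and Bend3 did not pass the threshold, with log2 changes of 0.04, 0.09 and 0.24.

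Openness of the TCF1 peaks differed between the libraries as a whole. In the CAT libraries 4879 and 4884 TCF1 peaks lay in an ATAC peak, and in the WT libraries 5485, 5384 and 5314 did. The CAT lists held 27129 and 29548 ATAC peaks with a median width of 254 bp in each, and the WT lists 41197, 35771 and 33204 peaks with medians of 384, 399 and 385 bp. Median pileup, listed by the authors as read height at a peak, was 8.95 and 8.34 in CAT and 13.3, 13.8 and 12.8 in WT. The pileup values do not follow the peak coordinates beside them, so whether they are heights at those peaks is unknown. Read depth of the ATAC libraries is unknown, so fewer reads and less open chromatin cannot be told apart, and the part of either in the choice of the 544 sites was not tested. The RNA libraries held 24124077 to 28456476 fragments in CAT and 25430630 to 31527246 in WT. Fragments fell on 19640 and 19735 genes in WT replicates 1 and 3, against 15747 to 16051 in the other 4 libraries. Regulatory T cell markers summed to 5793 to 6968 CPM in CAT and 3542 to 3653 CPM in WT. Markers of CD8 and NK cells summed to 21.8 to 31.8 CPM in CAT and 8.35 to 10.9 CPM in WT, with 2 of 3 tested genes higher. Myeloid markers summed to 3.99 to 6.97 CPM in CAT and 9.53 to 14.4 CPM in WT, with 1 of 3 tested genes higher and 2 lower, and B cell markers to 0.933 to 1.08 CPM in CAT and 1.11 to 1.73 CPM in WT with none called. Stromal markers summed to 70.5 to 96.2 CPM in CAT and 173 to 182 CPM in WT, with 1 of 3 genes higher and 1 lower, and erythroid markers to 1.94 to 2.46 CPM in CAT and 0.927 to 1.24 CPM in WT with none called.

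Of the 544 sites, 311 had a peak in all 3 WT libraries, 120 in 2 and 113 in 1. They made up 493 of the open TCF1 peaks of WT replicate 1, 423 of replicate 2 and 370 of replicate 3. Just outside the rule lay 256 TCF1 peaks open in all 3 WT libraries and 1 CAT library, 31 open in 2 WT libraries and 1 CAT library, and 13 open in 1 of each. The opposite class, open in at least 1 CAT library and no WT library, held 28 TCF1 peaks. TCF1 peaks open in every library numbered 4645, and 291 lay outside all ATAC peaks.

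**Figure D1:**
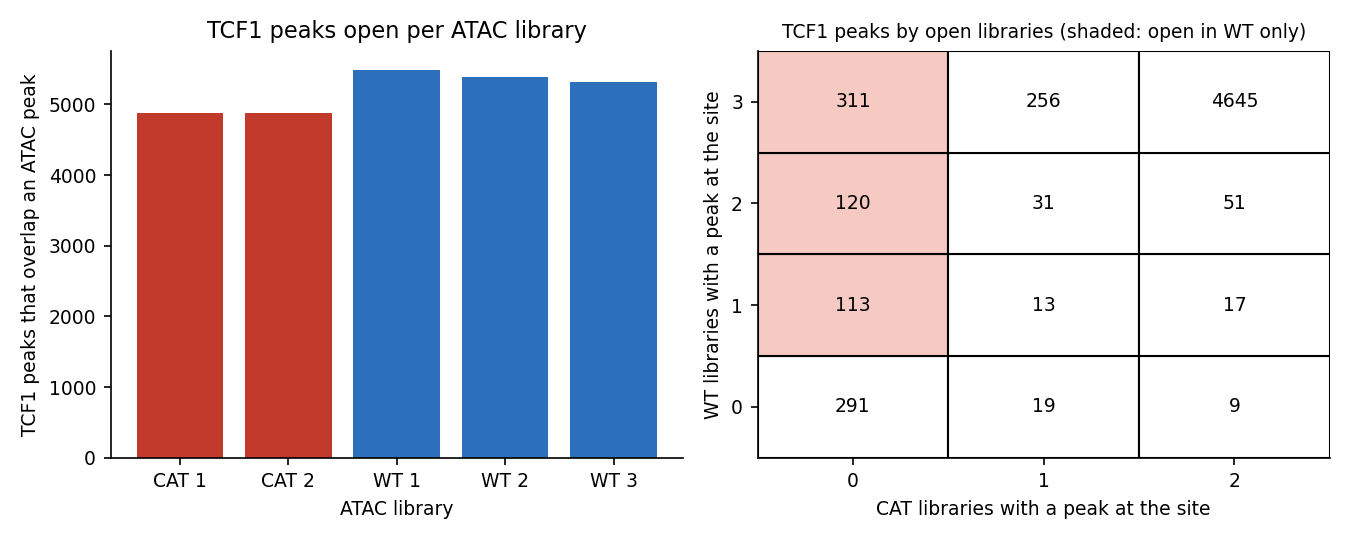
Left, the number of TCF1 peaks that overlap an ATAC peak in each library (CAT red, WT blue); right, the number of TCF1 peaks for each count of open CAT libraries (horizontal) and open WT libraries (vertical), with the 3 cells of sites open in WT only shaded. The shaded cells hold 311, 120 and 113 sites, against 4645 sites open in all 5 libraries.

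The sites fell into 2 kinds by what the CAT libraries showed next to them. When ATAC peaks of all libraries were joined wherever they overlapped, 269 sites (49.4%) lay in a joined region that also held a CAT peak outside the bound site. For these 269 the nearest edge of a CAT peak was at a median of 0.140 kb (quartiles 0.0590 and 0.376 kb). The other 275 sites lay in regions with no CAT peak at all, with a median gap of 3.97 kb (quartiles 1.81 and 10.3 kb). Among them, 122 were open in all 3 WT libraries. Over all 544 sites 231 (42.5%) had a CAT peak within 500 bp, and 70 (12.9%) had none within 10 kb. The whole 142 bp site lay inside the WT peak at 56.8%, 54.4% and 47.0% of the sites open in WT replicates 1, 2 and 3, against 94.7%, 93.2% and 91.5% of the TCF1 peaks open in every library. The WT peaks that touched the sites had median widths of 582, 621 and 549 bp, against 953, 924 and 855 bp.

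The median distance to the nearest gene start was 6.84 kb (quartiles 1.01 and 27.3 kb), against 0.156 kb for the 4641 placed TCF1 peaks open in every library. Within 1 kb of a start lay 24.8% of the sites (95% interval 21.2% to 28.7%), against 71.3% (70.0% to 72.6%) of the peaks open in every library. TCF1 peaks open in both genotypes but not in every library had a median of 3.86 kb, with 32.3% within 1 kb, and those outside all ATAC peaks 5.84 kb, with 15.5%. The 2 kinds of site differed here, with 42.4% (36.4% to 48.5%) of those that had a CAT peak in the region within 1 kb and 7.64% (4.79% to 11.4%) of those that had none. Gene spans held 58.5% of the sites and 72.0% of the peaks open in every library, and 15.3% and 5.39% lay beyond 50 kb from a start. Only starts of genes in the RNA table were used, so the printed Gm15323 site, whose gene has no RNA value, counts as 132928 bp away. Where the promoter table holds no start for a gene, the nearer end of its span was used, as for 139 of the 544 sites. With the table's starts alone the medians were 15.2 kb and 0.244 kb. Neighbouring sites are not independent, so the intervals are too narrow as a measure of other samples.

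Distances to open regions leave out the joined region that holds the site itself, which peaks outside all ATAC peaks do not have. Another open region of any library was at a median of 4.19 kb (quartiles 1.54 and 9.49 kb), against 7.77 kb (3.89 and 15.8 kb) around TCF1 peaks open in every library. It was 4.14 kb for the 368 TCF1 peaks open in both genotypes but not in every library and 0.910 kb for those outside all ATAC peaks, so a short distance was not particular to sites open in WT only. For the 275 sites with no CAT peak in the region the median was 2.75 kb, and for the 269 with one it was 7.29 kb. The regions left out had median widths of 322 and 1208 bp, and the part of width in this difference was not tested. With CAT peaks of the site's own region counted, the nearest CAT peak was at a median of 0.806 kb from the 544 sites. The nearest other region with a CAT peak was at 6.33 kb and the nearest other region open in all 5 libraries at 9.90 kb, against 11.3 and 16.2 kb for the peaks open in every library. For peaks open in both genotypes but not in every library they were at 6.35 and 8.91 kb. For peaks outside all ATAC peaks they were at 1.52 and 2.40 kb. Regions open in every WT library and no CAT library numbered 6054, and another of them was within 50 kb of 52.0% of the sites, against 42.2% of the peaks open in every library. Regions open in both CAT libraries and no WT library numbered 1929, and one was within 50 kb of 17.6% of the sites, against 14.1%. The 2 shares were 51.4% and 16.6% for peaks open in both genotypes but not in every library. For peaks outside all ATAC peaks they were 50.9% and 22.7%, so neither nearness was particular to sites open in WT only. Another TCF1 peak was at a median of 14.7 kb, against 41.1 kb for peaks open in every library, and 43.0% had one within 10 kb, against 26.6%. That share was 40.8% for peaks open in both genotypes but not in every library and 55.7% for peaks outside all ATAC peaks. A second site of the 544 was within 50 kb of 21.0% of them. A site of the 544 was that near to 10.0% of the peaks open in every library. The share was 16.3% for peaks open in both genotypes but not in every library and 21.0% for peaks outside all ATAC peaks.

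**Figure D2:**
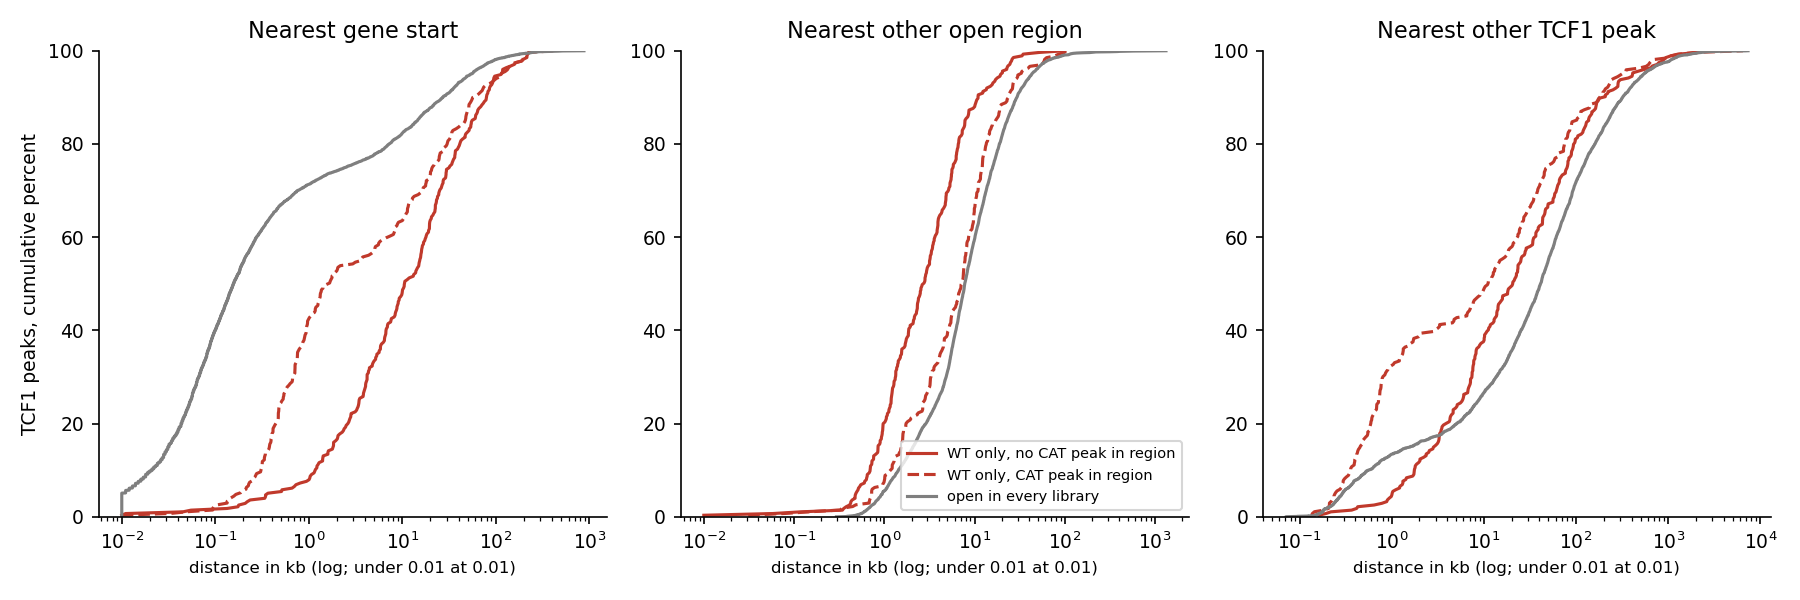
Cumulative percent of TCF1 peaks (vertical) by distance in kb on a log axis (horizontal) to the nearest gene start, the nearest other open region and the nearest other TCF1 peak. Red lines are sites open in WT only, solid for the 275 with no CAT peak in the joined region and dashed for the 269 with one; the grey line is the TCF1 peaks open in every library, whose median lies at 0.156 kb from a gene start.

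Each site was joined to the gene with the nearest start, which gave 497 genes, of which 434 passed the filter on low counts. In CAT 130 of these were higher (30.0%) and 127 lower (29.3%), and 177 did not pass the threshold (edgeR, with 0.05 as the limit on adjusted p and 3 libraries in each genotype). Of all 13193 tested genes 49.0% were called, 25.5% higher and 23.5% lower, and of 3716 genes at TCF1 peaks open in every library 23.7% were higher and 24.3% lower. The median log2 change of the 434 genes was 0.019 (quartiles -0.42 and 0.44), that of the 3716 genes was -0.019 (-0.28 and 0.28) and that of all tested genes 0.001 (-0.34 and 0.38). The shares at the sites were above the background in both directions, a difference that was not tested. In bulk libraries fewer cells of a type and less RNA per cell cannot be told apart. Genes at TCF1 peaks outside all ATAC peaks were higher at 31.7% and lower at 26.0%, shares close to those of the 434 genes. Called genes past a 2-fold change numbered 50 higher and 33 lower of the 434, against 1385 and 903 of all 13193 tested genes. At peaks open in every library they numbered 217 and 128 of 3716. The median level was 22.2 FPKM in CAT and 22.6 FPKM in WT, against 18.7 and 19.0 FPKM for genes at peaks open in every library and 10.8 FPKM in both genotypes for all tested genes.

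The shares were also taken over subsets of the sites, with no test between them. Genes at sites with no CAT peak in the region were higher at 69 of 215 (32.1%) and lower at 68 (31.6%), and genes at sites with one were higher at 67 of 234 (28.6%) and lower at 63 (26.9%). Where the site was also open in all 3 WT libraries and had no CAT peak in its region, 35 of 97 were higher (36.1%) and 26 lower (26.8%), with a median of 0.124. Genes with 2 or more sites were higher at 38.9% and lower at 22.2% of 36, and genes that also had a TCF1 peak open in every library at 29.6% and 33.2% of 223. A region gained in CAT within 50 kb of the site gave 22.5% and 27.5% of 80 genes. A start within 5 kb gave 28.6% higher and 27.3% lower of 227 genes, and a start farther away 31.1% and 30.6% of 222. Without CAT RNA replicate 3, which lay nearer to WT at several genes below, 31.5% of 438 genes were higher and 30.6% lower, against 26.7% and 25.0% of all genes. Joining sites to every gene whose span extended by 5 kb holds them gave 28.7% higher and 28.7% lower of 432.

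**Figure D3:**
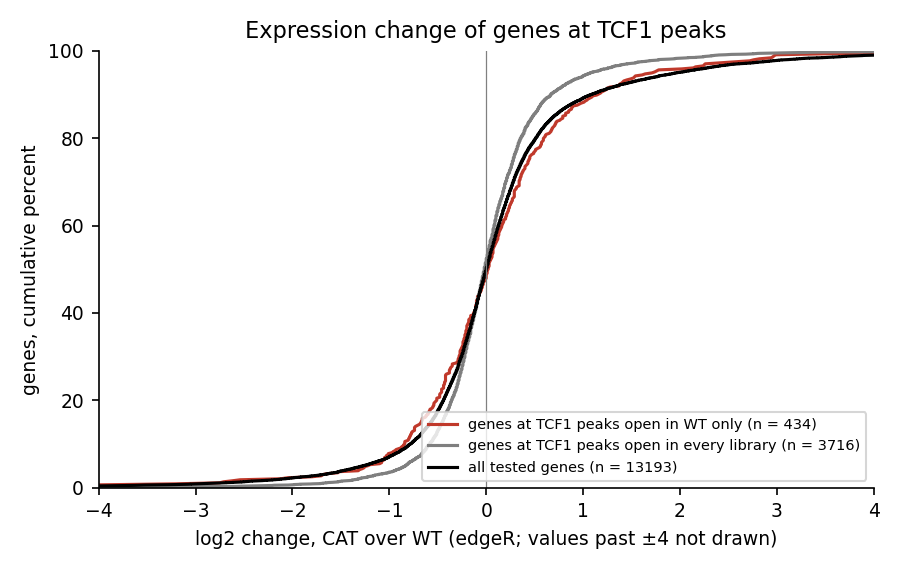
Cumulative percent of genes (vertical) by log2 change of CAT over WT from edgeR (horizontal), for genes joined to a TCF1 peak open in WT only (red, n = 434), genes joined to a TCF1 peak open in every library (grey, n = 3716) and all tested genes (black, n = 13193). The quartiles are -0.42 and 0.44 for the red line, -0.28 and 0.28 for the grey and -0.34 and 0.38 for the black.

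Among genes of regulatory T cell identity and function, 10 of the 33 listed were joined to a site open in WT only, and of these 6 were higher in CAT and 3 lower. Over the whole list 26 were higher and 6 lower, with a median log2 change of 1.31. Tigit, an inhibitory receptor, had 76.8, 77.8 and 48.2 CPM in CAT and 10.3, 10.5 and 9.05 CPM in WT, and rose by 2.76 ± 0.18 (edgeR adjusted p = 5.41e-06). Its site at chr16:43709386-43709527 lay 45.3 kb before the start, 0.167 kb from a CAT peak, while the TCF1 peak at the start printed above stayed open in CAT. Ccr8, a chemokine receptor of tissue regulatory T cells, had 78.9, 75.2 and 57.8 CPM in CAT and 17.9, 18.3 and 16.0 CPM in WT, a change of 2.02 ± 0.13 (edgeR adjusted p = 4.32e-06). The 1 TCF1 peak joined to it by nearest start, chr9:120082789-120082930, was open in all 3 WT libraries and lay 9.27 kb before the start with no CAT peak within 4.25 kb.

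Tnfrsf4, which encodes the costimulatory receptor OX40, carried the site nearest to a start among the genes of these lists. That site, chr4:156013845-156013986, lay 0.220 kb into the gene, was open in all 3 WT libraries and had no CAT peak within 8.26 kb. The transcript was at 469, 528 and 406 CPM in CAT and 178, 145 and 165 CPM in WT, higher in every CAT library by 1.53 ± 0.12 overall (edgeR adjusted p = 1.13e-05). Lrrc32, the gene of GARP, which docks latent TGF-beta on the cell surface, had a site inside its span 44.5 kb from any CAT peak. It was at 139, 199.7 and 219.8 CPM in CAT and 42.5, 90.5 and 106 CPM in WT, a rise of 1.23 ± 0.29 (edgeR adjusted p = 0.00717). Tnfrsf9, the gene of the costimulatory receptor 4-1BB, rose by 1.14 ± 0.20, with a site 4.67 kb before its start in a region that also held a CAT peak. For each of these 3 genes the transcript was higher in all 3 CAT libraries than in any WT library. Of all tested genes 25.5% were called higher in CAT, and the share separated in this way was not counted.

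Foxp3, the factor that defines the lineage, was at 153, 155 and 166 CPM in CAT and 86.8, 110.0 and 118 CPM in WT, a rise of 0.59 ± 0.11 (edgeR adjusted p = 0.00221). Its site, chrX:7583816-7583957, lay inside the gene 3.40 kb after the start, touched a peak in 1 WT library and had no CAT peak within 2.54 kb. WT replicates 2 and 3 had peaks beside it that did not reach the bound interval. Ikzf4, the gene of the Foxp3 partner Eos, was among the 3 that fell, at -0.48 ± 0.10 (edgeR adjusted p = 0.00413). Nt5e, the gene of the adenosine-producing ectoenzyme CD73, fell by 0.71 ± 0.17 to 365, 368 and 559.6 CPM in CAT, against 604, 745 and 765 CPM in WT, and lost its call in limma (adjusted p = 0.0541). Nrn1, which encodes neuritin, a small surface-anchored protein, was at 3.06, 4.88 and 3.21 CPM in CAT and 40.7, 30.4 and 29.9 CPM in WT, a change of -3.19 ± 0.20. Ikzf2, the gene of Helios, had 2 sites inside its span, each open in 1 WT library. The Ikzf2 transcript did not pass, at 2163, 2205 and 1931 CPM in CAT and 1803, 1837 and 1741 CPM in WT (edgeR adjusted p = 0.0610). It passed without CAT replicate 3 (edgeR adjusted p = 0.0267) and in DESeq2 (adjusted p = 0.0251).

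**Figure D4:**
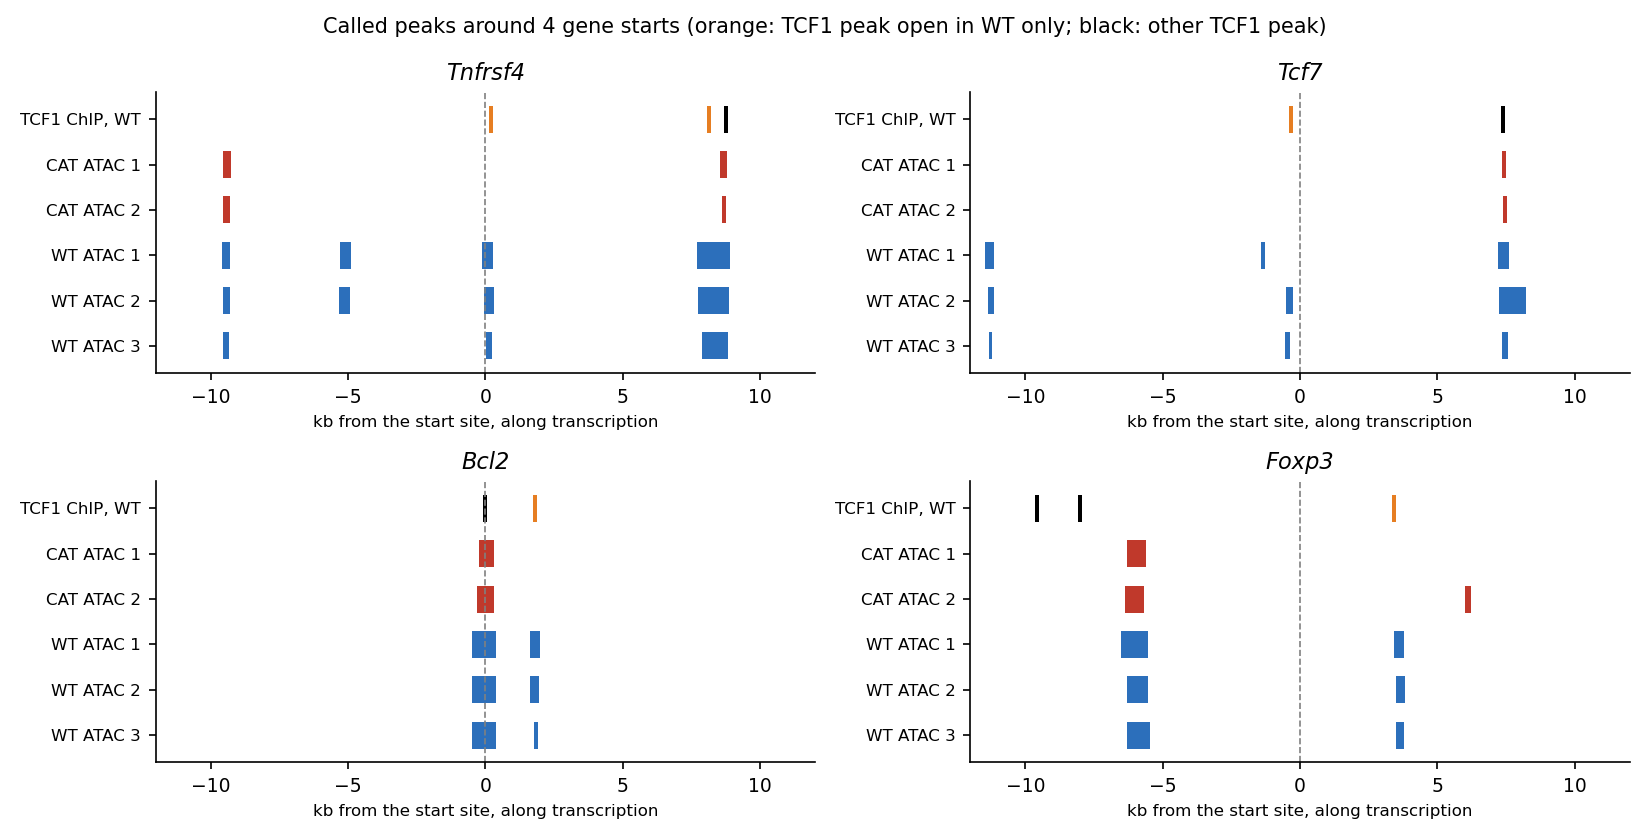
Called peaks within 12 kb of a start of Tnfrsf4, Tcf7, Bcl2 and Foxp3, the 4 genes of the regulatory T cell, Wnt and TCF, naive and TCF1 partner lists whose WT-only site is nearest a start in the promoter table and has no CAT peak in its region; the horizontal axis is kb from the start along transcription, and each row is 1 peak list (TCF1 ChIP in WT, 2 CAT and 3 WT ATAC lists). Orange marks TCF1 peaks open in WT only, black other TCF1 peaks. At Tcf7 the orange site lies 0.345 kb before the start shown, still inside the gene's span, and opposite no CAT peak. The black TCF1 peak farther into the gene is open in both genotypes.

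Genes of the Wnt pathway and TCF family were joined to the sites at 5 of 40, of which 1 was higher, 2 lower and 2 not past the threshold. The whole list had 35 tested genes, 7 of them higher and 10 lower, with a median of -0.20. Tcf7 itself had a site at chr11:52283289-52283430, 0.345 kb before a start, open in 2 WT libraries and 7.64 kb from the nearest CAT peak, while 4 of its 6 joined TCF1 peaks were open in every library. Its transcript was at 62.3, 71.4 and 140.3 CPM in CAT and 162, 145 and 159 CPM in WT, with CAT replicate 3 close to the WT libraries (log2 change -0.76 ± 0.26, edgeR adjusted p = 0.0331). The call was lost in 7 of 11 other fits, with adjusted p up to 0.110, among them those without WT replicate 1, 2 or 3 and without CAT replicate 1 or 2, and without CAT replicate 3 the change was -1.21. Lef1, whose product binds the same core, had 2 sites and overlapping groups, at 75.9, 81.8 and 98.3 CPM in CAT and 93.5, 94.3 and 90.9 CPM in WT (edgeR adjusted p = 0.348, or 0.0370 without CAT replicate 3, at -0.23).

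Axin2, a scaffold of the beta-catenin destruction complex that Wnt signalling induces, was the 1 that rose. It was at 64.4, 55.4 and 85.6 CPM in CAT and 34.3, 45.3 and 39.1 CPM in WT, a log2 change of 0.79 ± 0.16 (edgeR adjusted p = 0.00312). The site 0.896 kb after its start was open in 1 WT library and 0.310 kb from a CAT peak of the same region, and 3 of its 4 joined TCF1 peaks were open in every library. Wnt10a, a Wnt ligand gene, had 0, 0.127 and 0.143 CPM in CAT and 4.13, 4.38 and 4.05 CPM in WT, from 7 fragments in CAT and 355 in WT. Its change of -5.48 ± 0.47 (edgeR adjusted p = 1.91e-05) rests on those few CAT fragments. The site at chr1:74806582-74806723 was open in all 3 WT libraries, 2.48 kb from the nearer end of the gene. Wnt10b, another ligand gene, was near 1 CPM in both genotypes, at 0.975 ± 0.198 in CAT and 1.03 ± 0.460 in WT (SD, n = 3 each), and did not pass (edgeR adjusted p = 0.850).

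Genes of the naive and resting T cell state were joined to the sites at 9 of 28, of which 6 were lower in CAT and 2 higher. Over the whole list 14 were lower and 8 higher, with a median of -0.26. Itga4, the gene of the integrin alpha 4 chain, changed the most. It was at 37.1, 41.7 and 55.4 CPM in CAT and 602, 709 and 794 CPM in WT, a change of -3.97 ± 0.17 (edgeR adjusted p = 4.66e-07). Its 1 joined TCF1 peak, chr2:79138059-79138200, lay 117 kb before the start and 5.54 kb from the nearest CAT peak, and was open in all 3 WT libraries.

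Bach2, a repressor of effector genes in lymphocytes, had 3 sites inside its span, with 11 joined TCF1 peaks in all and 5 of these open in every library. The 3 sites were chr4:32257836-32257977, in a region with a CAT peak 0.169 kb away, chr4:32288026-32288167, 3.29 kb from a CAT peak, and chr4:32387971-32388112, 22.4 kb from one. The transcript was at 16.2, 17.4 and 35.4 CPM in CAT and 58.8, 69.8 and 71.8 CPM in WT, a change of -1.53 ± 0.26 (edgeR adjusted p = 0.00115). CAT replicate 3 was the nearest to WT, and without it the change was -1.99. S1pr1, the receptor that lets T cells leave lymph nodes, was at 211, 232 and 307 CPM in CAT and 512, 507 and 511 CPM in WT, a change of -1.03 ± 0.13. Foxp1, a quiescence factor gene with 2 sites in its span, changed by -0.84 ± 0.11, with means of 166 ± 18.9 CPM in CAT and 297 ± 32.2 CPM in WT (SD, n = 3 each).

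Bcl2, which encodes a survival protein, fell by 0.60 ± 0.14, to 306, 373 and 469 CPM in CAT, against 547, 566 and 627 CPM in WT. Its site at chr1:106712408-106712549 was 1.81 kb inside the gene, open in all 3 WT libraries and 1.41 kb from the CAT peak at the start, where a TCF1 peak was open in every library. The edgeR call of Bcl2 was lost in limma, at an adjusted p of 0.0592. Trib2, a pseudokinase gene, and Ets1, a transcription factor gene, rose by 1.16 ± 0.100 and 0.38 ± 0.11, the second with a limma adjusted p of 0.0758. Il6st, the signalling chain of the interleukin 6 receptor, had 609, 662 and 997 CPM in CAT and 551, 593 and 567 CPM in WT and did not pass (edgeR adjusted p = 0.0669), although it did in 4 other fits. None of the 14 follicular genes listed was joined to a site.

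Of 24 listed genes of factors that act with TCF1, 3 were joined to a site and each was higher in CAT, within a list of which 13 were higher and 4 lower. Runx3, a T cell lineage factor gene, had 26.5, 23.0 and 22.7 CPM in CAT and 10.2, 8.80 and 10.8 CPM in WT, a rise of 1.28 ± 0.12 (edgeR adjusted p = 4.21e-05). Both Runx3 sites were over 40 kb before the start used and within 0.211 kb of a CAT peak, and these were its only joined TCF1 peaks. Ets2 rose by 0.59 ± 0.083, and Fli1 by 0.39 ± 0.089. CD8 and NK cells also express Runx3, and the part of their markers in its rise was not tested.

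**Figure D5:**
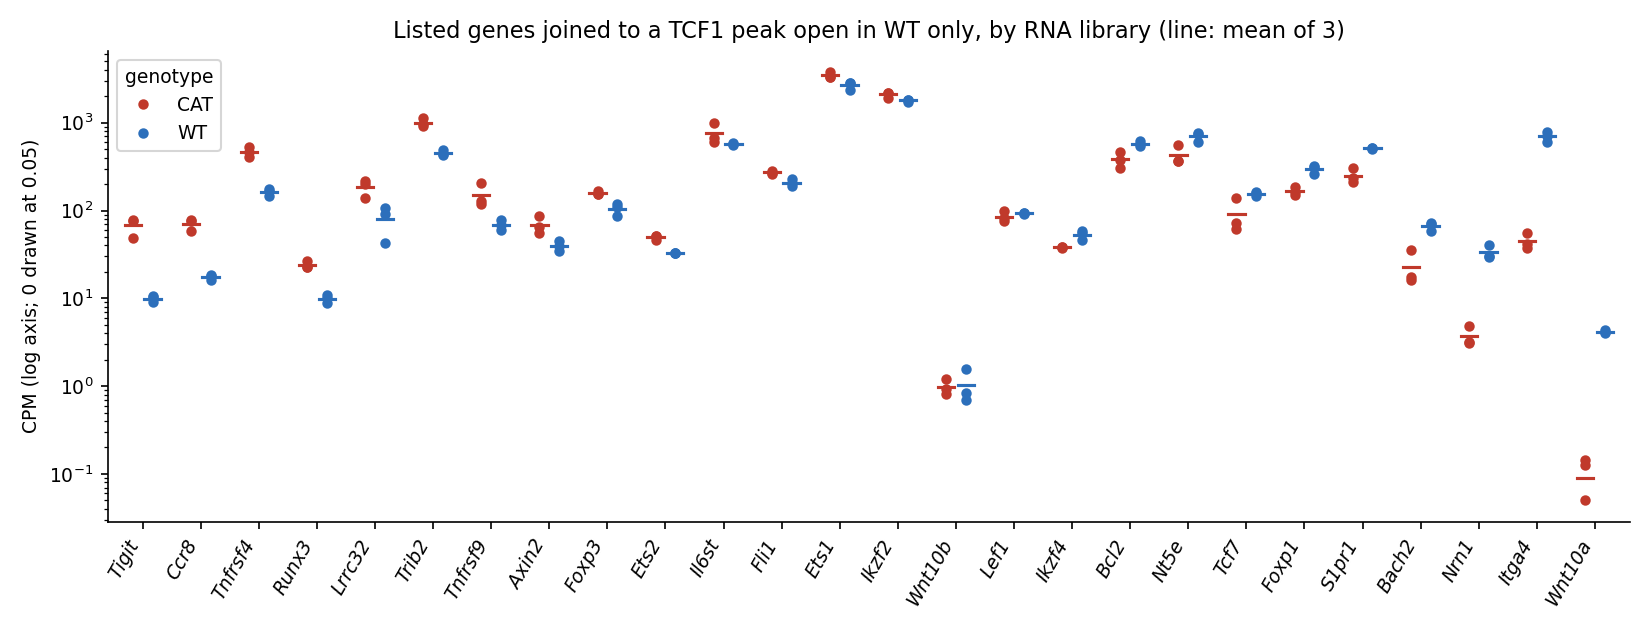
CPM on a log axis (vertical) of the listed genes described here that were joined to a TCF1 peak open in WT only (horizontal, ordered by log2 change), with 1 point per RNA library, CAT red and left of WT blue, and a line at each mean of 3. Tigit, at the left end, is 48.2 to 77.8 CPM in CAT and 9.05 to 10.5 CPM in WT; Wnt10a is at the right end.

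The largest increases joined to a site were taken among genes at 5 FPKM or more in either genotype. Amica1, which encodes the junctional adhesion molecule JAML, led with 265, 296 and 339.6 CPM in CAT and 15.5, 16.7 and 11.6 CPM in WT, a rise of 4.36 ± 0.16 (edgeR adjusted p = 2.08e-07). Its site at chr9:45083255-45083396 was the gene's only joined TCF1 peak, 4.14 kb after the start, open in 1 WT library and 20.3 kb from any CAT peak. Fasl, the death ligand gene, had 2 sites over 26 kb from its start and was at 119.6, 113 and 75.2 CPM in CAT and 15.6, 12.8 and 10.9 CPM in WT, a rise of 2.97 ± 0.19. Its list of 27 helper and effector genes had 22 tested, 16 higher and 5 lower. Fasl is also expressed by CD8 and NK cells, whose summed markers were higher in CAT, and their part in its rise was not tested. Sgk1, a salt-sensing kinase gene, rose by 2.72 ± 0.097, with a site 0.702 kb inside the gene and 0.474 kb from a CAT peak. Atp6v1g3, a proton pump subunit gene, rose by 3.51 ± 0.19 and Dclk2, a microtubule-associated kinase gene, by 2.96 ± 0.17.

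Aurkb, the mitotic kinase Aurora B, rose by 2.82 ± 0.19, and its 2 sites lay 0.416 kb apart, 3.81 and 4.36 kb from the nearer end of the gene. It was the 1 gene with a site in a list of 20 proliferation genes, of which 19 were higher in CAT and none lower, with a median of 2.30. The AP-1 subunit gene Fosl2 rose by 2.25 ± 0.14, and Ankrd55, an ankyrin repeat gene, by 2.16 ± 0.098. The histone genes Hist1h3e (2.41 ± 0.22) and Hist1h2bj (2.26 ± 0.18) have near-identical copies, so their fragments may be split between genes and their values are uncertain. Tigit and Ccr8, given above, complete the 12. Every one of the 12 kept its call in each of the 11 other fits, and in none did the CAT and WT libraries overlap. Both follow largely from their choice as the largest called increases, and the share of all tested genes that did so was not counted.

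The largest decrease, by the same rule, was that of St8sia6, a sialyltransferase gene. It had 1.60, 2.21 and 6.28 CPM in CAT and 130.2, 129.9 and 123 CPM in WT, a change of -5.23 ± 0.38 (edgeR adjusted p = 7.92e-06). The site at chr2:13792510-13792651 was 0.940 kb inside the gene, open in all 3 WT libraries, and 0.677 kb from a CAT peak of the same region. St6galnac3, another sialyltransferase gene, changed by -2.62 ± 0.23 and had 1 joined TCF1 peak, 11.1 kb from any CAT peak. Cd9, a tetraspanin gene, had 4.81, 5.72 and 4.78 CPM in CAT and 35.1, 32.4 and 35.8 CPM in WT, a change of -2.75 ± 0.12, with a site 0.0410 kb from a CAT peak. Myeloid cells also express Cd9, their summed markers were lower in CAT, and their part in this change was not tested.

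Arhgap20 changed by -2.71 ± 0.23 and Dtx4, a ubiquitin ligase gene of the Deltex family, with 2 sites, by -2.54 ± 0.18. Parp8 changed by -2.05 ± 0.18, Lrig1, a growth factor receptor inhibitor gene, by -1.80 ± 0.28 and Adamts6, a secreted protease gene with 2 sites, by -1.69 ± 0.26. Lrig1 was at 80.5, 105 and 192 CPM in CAT and 368, 484 and 461 CPM in WT, and Adamts6 at 41.4, 57.4 and 97.3 CPM in CAT and 192, 233 and 208 CPM in WT, in each case with CAT replicate 3 the nearest to WT. Igf2r, a mannose 6-phosphate receptor gene, fell by 1.70 ± 0.10, but its site lies where its span overlaps that of the antisense gene Airn, and reads of the 2 cannot be told apart without strand. Nrn1, Itga4 and Bach2 complete the 12. All 12 kept their calls in the 11 other fits, which follows largely from their choice as the largest called decreases.

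Few genes were joined to more than 1 site. A single site was joined to 456 genes, 2 sites to 37, 3 to Bach2 and Atxn1 and 4 to Inpp4b and Gm5069. Of the 36 tested genes with 2 or more sites 14 were higher and 8 lower, with a median log2 change of 0.132. Inpp4b, a phosphoinositide phosphatase gene, had 4 sites in its long span, 216 to 426 kb from the start, of which 2 were over 60 kb from any CAT peak, and 1 of its 9 joined TCF1 peaks was open in every library. Its groups overlapped, at 1963, 2404 and 3108 CPM in CAT and 3109, 3075 and 2690 CPM in WT (edgeR adjusted p = 0.217, or 0.0131 without CAT replicate 3). Atxn1, a transcriptional corepressor gene, was at 152, 143 and 133 CPM in CAT and 57.6, 72.5 and 70.9 CPM in WT, a rise of 1.09 ± 0.11 (edgeR adjusted p = 4.10e-05), and none of its 4 joined TCF1 peaks was open in every library. The 4 sites joined to Gm5069 lie inside the span of Itpkb, an inositol trisphosphate kinase gene that was chosen after its values were seen. Itpkb had 175, 173 and 234 CPM in CAT and 198, 259.7 and 273 CPM in WT and did not pass (log2 change -0.33, edgeR adjusted p = 0.0977), while it did in 4 other fits, among them those without CAT replicate 3 (edgeR adjusted p = 0.0105) and without WT replicate 1 (0.0270). Gm5069 itself was low, at 5.26 ± 0.573 CPM in CAT and 2.98 ± 0.547 CPM in WT (SD, n = 3 each), a change of 0.82 ± 0.20.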

How the data were processed

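Per the labels, RNA-seq and ATAC-seq were made from CAT and WT regulatory T cells and TCF1 ChIP-seq from WT cells; an input control is not used here. Bowtie, HOMER and MACS2 and the build mm10 appear in the submitters' processing notes, without roles or versions. Which aligner served the RNA reads, and the peak thresholds, are not given in the sources used. Per the file headers, the RNA table comes from Cuffdiff. The authors deposited estimated counts of fragments per gene, 92.5% of them whole numbers, and FPKM values. The authors' ATAC tables, 1 per library in MACS2 format, give positions and a pileup signal per peak. That signal does not follow the coordinates beside it (rank correlation with width 0.0381 to 0.0547 within a library, and 0.153 to 0.216 between overlapping WT peaks, against 0.832 to 0.848 for widths), so no peak was filtered or ranked by score. TCF1 peaks are positions alone, all 142 bp wide. How deeply the ATAC and ChIP libraries were sequenced is unknown.

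After rounding, estimated counts went into edgeR 4.0.16 in R 4.3.3 (TMM factors, its filter by expression, quasi-likelihood test), with Benjamini-Hochberg adjustment over 13193 genes. Left out were 27 identifiers turned into dates (0.265% to 0.281% of fragments) and 13 genes with a failed estimate. The fit was checked on simulated counts with known changes. Alternatives were DESeq2 1.42.0, limma 3.58.1 on log2(FPKM + 1) where 3 libraries reached an FPKM of 1, other scaling, no filter, other overlaps, other gene joins and leaving out each library. ATAC peaks sharing 1 bp were joined into 49014 regions. A site was joined to the nearest start in a RefSeq promoter table (18004 genes of the RNA table), or to the nearer end of the RefSeq span for 6126 genes that it does not hold. Motifs were searched on both strands in TCF1 peaks lying whole in a promoter window, as no genome was used, and the planned choice of sites to print by TCF core could not be applied. Shares have 95% Clopper-Pearson intervals from scipy 1.17.1.

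The sites, gene lists and tests were chosen with earlier results of these data known. Named genes are the 12 largest increases and 12 largest decreases past the threshold at 5 FPKM or more in either genotype and above 0 in both, every gene of the lists of regulatory T cell, Wnt and TCF, naive, follicular and TCF1 partner genes joined to a site, and genes with 3 or more sites. Genes at printed sequences and, in the closing section, of the other lists fall outside that rule. A gene that the rule names is counted but not reported here. Replicate numbers are names only.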

Additional observations from a re-analysis of the deposited data

How the results depend on the processing

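By limma on FPKM 2099 genes were higher in CAT and 1834 lower over all genes, and 22.6% and 19.7% of those at the sites, against 18.4% and 16.1% of all genes in that fit. The edgeR fit without 1 library gave 2688 to 3583 genes higher and 2417 to 3364 lower over all genes, and 25.9% to 31.5% higher and 22.8% to 30.6% lower at the sites, with medians of -0.013 to 0.038. Upper-quartile factors turned the balance to 3127 higher and 3419 lower, and 28.6% and 32.3% at the sites, with medians of -0.037 over all genes and -0.018 at the sites. Without the filter on low counts the median over all genes was -0.22, and 29.0% and 26.5% of genes at the sites were called, against 16.8% and 15.1% of all. The number of sites was 311 (5.29%) with a peak required in all 3 WT libraries, 313 (5.33%) with the nearest CAT peak beyond 500 bp, 275 (4.68%) with no CAT peak in the joined region, 712 (12.1%) with at least 0.5 of the site covered, and 469 to 698 (7.98% to 11.9%) without 1 ATAC library. The median distance to a gene start was 15.2 kb with the promoter table alone and 10.6 kb for sites with no CAT peak in the region. The median distance to another open region was 2.75 kb for those sites, 6.59 kb to regions open in all 3 WT libraries and 8.56 kb to regions open in both CAT libraries. In the whole 300 base windows of the 6 promoter sites, used because no genome was, 1 held a TCF core and 3 an ETS core. The causes of these differences were not tested.

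Whether replicate numbers shared by both genotypes pair the libraries was not tested. Deviations of same-numbered libraries correlated at 0.1, -0.047 and 0.099, and those of other pairs at -0.173 to 0.116. The highest value was that of CAT replicate 2 with WT replicate 1. With the number as a block, 3349 genes were higher and 3035 lower, and 30.0% and 29.5% at the sites. Of 49 named genes 40 kept their call in all 11 other fits and none reversed. These 40 include the genes named as the largest called increases and decreases, whose calls hold largely by that choice. They also include genes that stayed uncalled, such as Wnt10b. The share of all tested genes that kept their call was not counted. A stricter ATAC score was not tried, because scores do not follow the coordinates. Alternatives with the promoter table alone, the nearest tested gene and the joined region were chosen after seeing the data.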

Other observations

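T cell receptor signalling genes were joined to the sites at 9 of 40 listed, of which 3 were higher in CAT and 1 lower, against 12 higher and 10 lower over the list. Dusp5, a phosphatase gene that restrains ERK, had 38.0, 34.7 and 34.5 CPM in CAT and 10.4, 9.09 and 11.7 CPM in WT, a log2 change of 1.78 ± 0.12 (edgeR adjusted p = 5.22e-06), with a site 16.3 kb from its start and 15.9 kb from any CAT peak. Cblb, a ubiquitin ligase gene that dampens the receptor, rose by 0.82 ± 0.088, and Ptpn22, a phosphatase gene with the same role, by 0.85 ± 0.099. Prkcq, the gene of protein kinase C theta, fell by 0.42 ± 0.095. Bcl10, Cbl, Cd5, Nfkb1 and Nr4a1 did not pass, with log2 changes of 0.03, 0.13, -0.21, 0.07 and -0.27.

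Of the 21 trafficking genes listed, 4 had a site, with Ccr8 higher and 3 lower, against 8 higher and 6 lower over the list. Itga6, an integrin gene, was at 258, 269 and 358 CPM in CAT and 491, 577 and 524 CPM in WT, a change of -0.85 ± 0.13 (edgeR adjusted p = 6.48e-04). Rgs10, a regulator of G protein signalling, changed by -1.07 ± 0.30, a call lost without CAT replicate 2 or WT replicate 3 (edgeR adjusted p of 0.0568 and 0.0572). Cd44, a hyaluronan receptor gene, was at 68.5, 66.9 and 151 CPM in CAT and 169, 177 and 169 CPM in WT, and its call (edgeR adjusted p = 0.0277) was lost in 7 of 11 other fits, among them those without CAT replicate 1 or 2 and without each WT replicate. Both TGF-beta pathway genes with a site were lower, in a list of 15 of which 9 were lower and 3 higher. Smad7, the inhibitory SMAD gene, had 50.5, 48.0 and 52.1 CPM in CAT and 81.0, 94.0 and 99.5 CPM in WT, a change of -0.87 ± 0.094 (edgeR adjusted p = 8.30e-05), with a site 0.0160 kb from a CAT peak. Ski, a SMAD corepressor gene, changed by -0.43 ± 0.15 and lost its call in 5 other fits, with adjusted p up to 0.150 without CAT replicate 2. Lta, the lymphotoxin alpha gene, fell by 1.05 ± 0.16, with a site 0.392 kb from its start and 0.0760 kb from a CAT peak of the same region. Socs1 and Hdac4, the only listed interferon and chromatin genes with a site, rose by 0.62 ± 0.12 and 0.30 ± 0.086, and both lost their calls in limma (adjusted p of 0.327 and 0.137). Over the 25 interferon genes 5 were higher and 13 lower, and over 24 tested chromatin genes 6 were higher and 4 lower.

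The share of TCF1 peaks open in WT only ranged over the autosomes from 3.35% on chromosome 14 (6 of 179) to 14.7% on chromosome 9 (49 of 334).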
